A study of Mus musculus and Rattus norvegicus with 30 samples.

Results

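Long noncoding RNAs (LncRNAs) that were assembled from mouse dorsal root ganglion (DRG) reads are described here for 1 structural class, in which a LncRNA is drawn with 2 or more exons but none of the gaps between its exons equals a deposited splice junction in chromosome, start, end and strand. Of 4730 assembled mouse LncRNAs, 4026 had at least 2 exons, and 2984 fell in this class. A further 2 met the rule and were left out by name. The 2984 are called unmatched LncRNAs below. The 1040 LncRNAs with at least 1 gap equal to a junction are called junction-matched, and the remaining 704 had a single exon.

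RNA came from whole L3 and L4 ganglia of BALB/c and B10.D2 mice that had spared nerve injury (SNI, a cut of some branches of the sciatic nerve with another left in place) or sham surgery. The groups held 6 BALB/c sham libraries (3 male, 3 female), 4 BALB/c SNI libraries (2 male, 2 female), 5 B10.D2 sham libraries (3 male, 2 female) and 5 B10.D2 SNI libraries (2 male, 3 female). Per the study's methods the mice were adult, the ganglia were taken 28 days after surgery, and every library came from 1 animal. The labels name no transgene or drug. A whole ganglion mixes neurons with cut and uncut axons, glia, vessels and immune cells, so fewer cells of a type and less RNA per cell cannot be told apart. A further 2 labelled samples were not analysed here.

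A splice junction is seen when a read runs across the join between exons, and the introns of most mammalian genes begin with GT and end with AG, the letters that the splicing machinery reads. A library of total RNA also holds pre-mRNA, in which introns are still present. The DRG holds the cell bodies of the sensory neurons of touch, temperature and pain, and LncRNAs are known there both as nuclear regulators and as transcripts of unknown role. Per the study's methods, annotated gene models were lengthened at both ends and set aside, transcribed islands outside them were joined and trimmed with junctions, and falls in read coverage were also taken as introns. The deposited exon positions do not say which of these made a given gap.

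The sequence at gap ends differed between unmatched LncRNAs with 2 exons and those with more, and a few gaps are shown for that reason. Sequences are from the RefSeq copy of GRCm38 (mm10), which is strain C57BL/6J, and run 5′ to 3′ along the LncRNA. Capitals mark the first and the last base pair of letters of the gap, and 15 bases of exon flank each end. LncRNA837, in an intron of Lingo2, has 1 gap at chr4:36480189-36482298 on the minus strand that begins with GT and ends with AG.
LncRNA837 gap start: gccattctgactgggGTaaggtggaatctc
LncRNA837 gap end: ttttcttttacatAGttcactcagttcttt
LncRNA1947, which starts 1000 bases past the end of the nociceptor sodium channel gene Scn10a, also has a GT-AG gap (chr9:119602434-119602684, minus strand), but the bases from the GT onward occur again directly after the AG.
LncRNA1947 gap start: gtgtgggggggcgagGTgctgtggtgcaca
LncRNA1947 gap end: gtggtaggggcagAGgtgctgtggtgcaca
LncRNA2255, in an intron of Tenm2, has a GT-AG gap of 41 bases inside a tandem repeat (chr11:36861688-36861728, minus strand), and LncRNA1210, in an intron of Cntnap2, has a gap of 22 bases inside a run of TG (chr6:45362654-45362675, plus strand).
LncRNA2255 whole gap: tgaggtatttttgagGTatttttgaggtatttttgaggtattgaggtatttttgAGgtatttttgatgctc
LncRNA1210 whole gap: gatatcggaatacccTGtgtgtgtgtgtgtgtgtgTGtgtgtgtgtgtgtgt
LncRNAs with many exons are represented by LncRNA6532, with 25 exons and an intergenic position, and LncRNA4714, with 10 exons past the opioid receptor gene Oprd1. The gaps shown are the first in the direction of transcription, at chr13:32468318-32468805 (plus strand) and chr4:132106262-132106299 (minus strand).
LncRNA6532 gap start: tactagattgccaggCAaaatgtgcttaca
LncRNA6532 gap end: actttctgatcacTCtgaaaatgtttcatg
LncRNA4714 whole gap: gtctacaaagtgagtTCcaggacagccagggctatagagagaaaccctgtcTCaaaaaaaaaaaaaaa
LncRNA7985 had the highest level per kilobase of all unmatched LncRNAs, and its gap at chr3:62159244-62159274 (plus strand) begins with CC and ends with TG. LncRNA1174, the junction-matched LncRNA with 2 exons and a GT-AG gap that had the highest level per kilobase, is given for comparison (chr5:146261163-146261270, minus strand).
LncRNA7985 whole gap: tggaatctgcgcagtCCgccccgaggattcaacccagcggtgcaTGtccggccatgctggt
LncRNA1174 gap start: gcgcggaccccaccaGTttacctcttaacg
LncRNA1174 gap end: ggtatttagccttAGatggagtttaccacc

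The unmatched LncRNAs held 30774 exons and 27790 gaps. The number of exons ran from 2 to 42 with a median of 6, whereas the median of junction-matched LncRNAs was 2. By number of exons, 822 had 2 exons, 983 had 3 to 9, 670 had 10 to 19 and 509 had 20 to 42. Exons were short, with a median of 148 bases, and the exons of a LncRNA summed to a median of 3554 bases over a median span of 15033.5 bases. Gaps had a median of 320 bases and ran from 1 to 198424 bases. Of all gaps, 8.09% were shorter than 20 bases and 22.7% were shorter than 70 bases. The most exons, 42 each, were drawn for LncRNA1784, LncRNA2468 and LncRNA3804.

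As drawn, gaps rarely had the letters of an intron, except in LncRNAs with 2 exons. GT first and AG last were found in 699 of the 27790 gaps (2.52%, exact binomial 95% interval 2.33% to 2.71%). Read on the opposite strand the share was 0.389%. When each end could move by up to 3 bases, the shares were 15.1% on the strand of the LncRNA and 11.96% on the opposite strand. The rule removed gaps equal to a junction, and of those 1243 gaps 1085 (87.3%) were GT-AG. Among unmatched LncRNAs with 2 exons, 447 of 822 gaps (54.4%, 50.9% to 57.8%) were GT-AG and 0 were so on the opposite strand, which allows a share of up to 0.448%. Among those with 3 or more exons, 252 of 26968 gaps (0.934%, 0.823% to 1.06%) were GT-AG, against 0.400% on the opposite strand. Within 2-exon LncRNAs the share was 60.8% (401 of 660) where the span overlapped a gene on the same strand without overlap of exons. Between genes it was 5.41% (4 of 74). Intervals in this report cover counting error only, and gaps of 1 LncRNA are not independent.

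**Figure D1:**
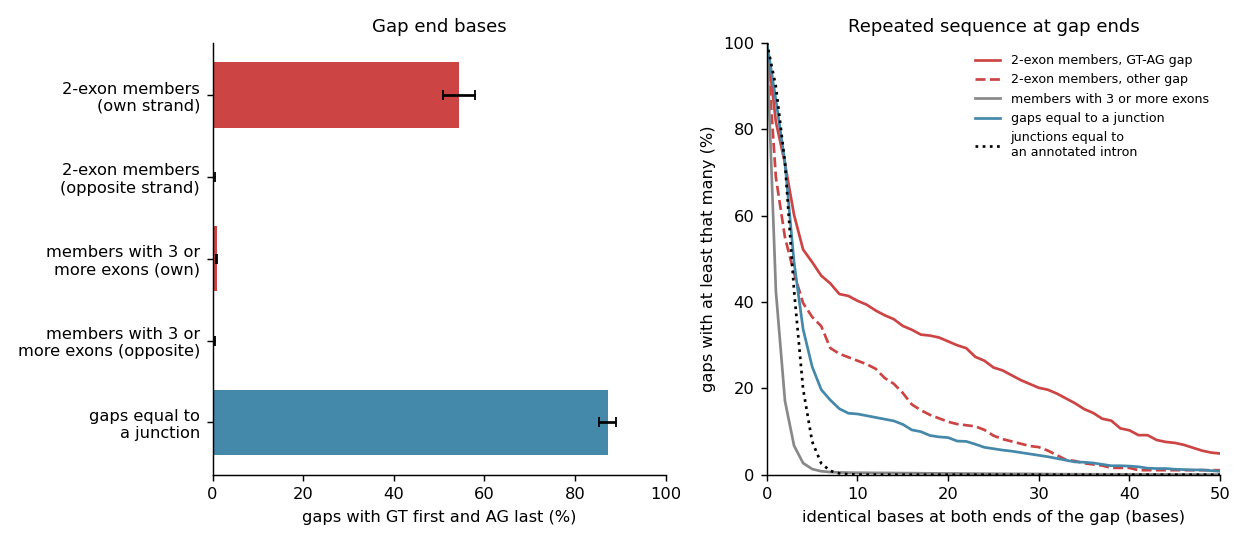
The left panel plots the percent of gaps that begin with GT and end with AG (bars start at 0; error bars are exact binomial 95% intervals) for unmatched LncRNAs with 2 exons (54.4%), the same on the opposite strand (0), unmatched LncRNAs with 3 or more exons (0.934% and, on the opposite strand, 0.400%) and gaps equal to a junction (87.3%). The right panel plots the percent of gaps (y axis) with at least a given number of identical bases at both ends (x axis, bases); at 10 bases the GT-AG gaps of 2-exon LncRNAs lie at 40.3% and junctions equal to an annotated intron at 0.0513%.

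Many of these GT-AG gaps lay between copies of the same sequence. Where the bases at the start of a gap repeat after its end, the gap can be moved along the repeat without altering the joined sequence, and the number of identical bases counts the positions. It was 10 or more in 180 of 447 GT-AG gaps of 2-exon LncRNAs (40.3%, 35.7% to 45.0%) and in 26.4% of their other gaps. In LncRNAs with 3 or more exons it was 10 or more in 0.475% of all gaps, and in 72 of their 252 GT-AG gaps (28.6%). Junctions equal to an intron of the annotation (GENCODE M21) had such a repeat in 93 of 181432 cases (0.0513%), gaps equal to a junction in 14.1%, and all other deposited junctions in 13.1%. The 5 unmatched examples above with 2 exons varied within both kinds of gap. With a GT-AG gap, the count was 1 for LncRNA837, 33 for LncRNA1947 and 26 for LncRNA2255. With another gap, it was 32 for LncRNA1210 and 0 for LncRNA7985. No unmatched gap became equal to a junction when it was moved along its repeat.

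Nearly every gap lay within a longer junction. Of the 27790 gaps, 99.7% lay inside a deposited junction on the same strand or shared 1 end with one, and 96.2% did so when junctions over 100000 bases were set aside. The longest deposited junction spanned 2344087 bases, and whole LncRNAs, from first to last exon, lay inside a junction in 91.6% of cases, so a gap inside a junction says little about that gap. Single-exon LncRNAs lay inside a junction in 18.9% of cases. A gap shared an end with a junction in 145 unmatched LncRNAs, and of those 156 gaps 79 (50.6%) were GT-AG. No gap equalled an intron of the annotation.

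Against GENCODE M21, the span of 1408 unmatched LncRNAs (47.2%) overlapped a gene on the same strand without overlap of exons, compared with 22.2% of junction-matched LncRNAs. Such LncRNAs are called intronic, or in an intron, throughout this report. Whether a LncRNA lay wholly inside an intron was not checked. The class can hold LncRNAs larger than the gene, such as LncRNA3622 (6781 bases) over the miRNA gene Mir384. A further 682 (22.9%) lay between genes, 448 (15.01%) lay opposite a protein-coding exon and 212 (7.10%) lay opposite another exon. In 186 (6.23%) the span overlapped only a gene of the opposite strand, without overlap of exons, and 48 (1.61%) overlapped an exon of the same strand. The start of 227 LncRNAs (7.61%) fell in the first 100 bases beyond a distance of 1000 bases from the end of a gene on the same strand, whereas 8 fell closer and 58 fell in the next 100 bases. Junction-matched (7.596%) and single-exon LncRNAs (6.53%) had the same edge, which lies where the lengthened gene models of the study's methods end. LncRNA1947 and LncRNA3622 began 1000 bases past Scn10a and 5330434G04Rik, LncRNA6043 began 1001 bases past Gm10754, LncRNA4066 began 1002 bases past the neural transcription factor gene Myt1, LncRNA4714 began 1004 bases past Oprd1, and LncRNA2468 began 1012 bases past Tmem229b.

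The unmatched LncRNAs took 2.78% ± 0.136 (SD, n = 20) of all counts, and 70.9% ± 1.14 (SD, n = 20) of the counts of assembled LncRNAs. Levels are given in counts-per-million units (CPM), where a library total is scaled by its TMM factor, or in CPM per kilobase of exon where genes are compared. The median level was 1.05 CPM, with quartiles of 0.237 and 5.43 CPM and a maximum of 824 CPM. A mean of at least 10 CPM was reached by 489 LncRNAs and of at least 100 CPM by 51, and 84.9% had a count in every library. Per kilobase the median was 0.306, below 0.524 in junction-matched and 0.512 in single-exon LncRNAs. LncRNAs with 2 exons stood highest, at a median of 0.782 CPM per kilobase, against 0.239, 0.187 and 0.188 for those with 3 to 9, 10 to 19 and 20 to 42 exons.

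The highest levels per kilobase belonged to LncRNAs with 2 exons. LncRNA7985, an intergenic LncRNA of 246 exonic bases on chromosome 3, stood at 121 CPM per kilobase. LncRNA4066 (15.4), LncRNA3426 in an intron of Prune2 (13.5), LncRNA1947 (13.0) and LncRNA3622 (11.2) followed in the same unit. None of the 5 passed the test for SNI in either strain. Whether residual ribosomal RNA adds to the reads of LncRNA7985, or of the junction-matched LncRNA1174 printed above, was not tested. LncRNA1947 lay at 125, 145 and 172 CPM (lowest, median and highest of 6) in BALB/c sham and at 83.7, 93.8 and 112 CPM (of 5) in B10.D2 sham, and the strains did not overlap. It was lower in B10.D2 (log2 fold change -0.59, SE 0.0820, adjusted p = 1.2e-05), while Scn10a itself stood at -0.09 (adjusted p = 0.367).

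Library totals were 29989963 to 41881331 counts. The summed level of 12 sensory neuron markers lay between 8831 and 11009 CPM in every library, and 3 of 12 were called lower after SNI in each strain (medians of -0.12 and -0.10 on the log2 scale). Of 11 injury-induced genes tested, such as Atf3 and Sox11, SNI raised 11 in the BALB/c strain and 10 in the B10.D2 strain. The summed level of 11 macrophage markers ran from 86.5 to 213 CPM in BALB/c sham and from 158 to 238 CPM in BALB/c SNI, with 4 of 11 called higher there and 0 in B10.D2. In B10.D2 it was 176 to 201 CPM in sham and 181 to 295 CPM in SNI. Skeletal muscle markers ran from 8.95 to 1318 CPM in BALB/c sham and from 8.14 to 21.3 CPM in B10.D2 sham. In SNI they ran from 20.2 to 523 CPM in BALB/c and from 9.52 to 40.3 CPM in B10.D2, and 0 of 5 were called for SNI in either strain. Schwann cell markers ran from 2190 to 4936 CPM in BALB/c sham and from 3001 to 3526 CPM in BALB/c SNI, with 1 of 6 called higher. None of the marker lists held a gene at 3 counts or fewer in every library. The part of these cells in the results below was not tested.

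After SNI in BALB/c, 138 of 2384 unmatched LncRNAs tested were called (84 higher, 54 lower; 5.79%), where 9.69% of all 24685 features tested were called (4.82% higher, 4.87% lower). A feature was called at a Benjamini-Hochberg adjusted p under 0.05 in the quasi-likelihood F test of edgeR. Of the 2384, 87 were called with groups that did not overlap, against 1629 of all 24685 features (6.60%). Without BALB/c SNI library 64 the count was 90. In B10.D2, 59 were called (31 higher, 28 lower, 2.47%), against 4.58% of all features (2.1% higher, 2.48% lower). Of the 2384, 38 were called with groups that did not overlap, against 761 of all 24685 features (3.08%). Without B10.D2 SNI library 90 the count was 38. The other 600 unmatched LncRNAs were too low to be tested. Junction-matched and single-exon LncRNAs were called at 6.13% and 5.85% in BALB/c and at 2.84% and 1.61% in B10.D2. The tested unmatched LncRNAs had a median level of 2.02 CPM, against 7.02 CPM over all features tested. Among LncRNAs with 2 exons, 27 of 428 with a GT-AG gap (6.31%) and 15 of 320 with another gap (4.69%) were called in BALB/c, and 17 (3.97%) and 7 (2.19%) in B10.D2. The median log2 fold change over the tested LncRNAs was 0.035 in the BALB/c strain and 0.047 in the B10.D2 strain, and over all features it was 0.0033 and 0.0076. In both strains 45 were called, 22 higher and 23 lower, and the direction was the same in each. The 45 were 32.6% of the BALB/c calls and 76.3% of the B10.D2 calls, and over all features these shares were 36.2% and 76.7%. The strains had separate sham libraries but shared 1 fit.

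Among called LncRNAs of at least 0.5 CPM on average whose groups did not overlap, LncRNA6532 rose most in both strains. It lies between genes at chr13:32468203-32482391 (plus strand), and the nearest gene, Gm48073, is 50527 bases away. BALB/c sham libraries lay at 0.0279, 0.147 and 0.358 CPM (lowest, median and highest of 6), and the SNI libraries at 1.65, 1.73, 1.22 and 1.11 CPM. In B10.D2 the sham libraries lay at 0.117, 0.121, 0.190, 0.133 and 0.0483 CPM and the SNI libraries at 1.42, 0.587, 1.33, 1.18 and 1.01 CPM. Every SNI library was above every sham library in both strains, although the sham libraries held 1 to 12 counts. The log2 fold change was 3.05 (SE 0.356, adjusted p = 7.65e-06) in BALB/c and 3.17 (SE 0.395, adjusted p = 4.96e-05) in B10.D2.

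LncRNA6012 has 41 exons and lies 1229 bases from Egr2, a transcription factor gene of myelinating Schwann cells (chr10:67499873-67534245, minus strand). BALB/c libraries rose from 0.125, 0.246 and 0.371 CPM (lowest, median and highest of 6) in sham to 1.07, 1.45, 1.32 and 1.53 CPM in SNI. B10.D2 sham libraries lay at 0.263, 0.543, 0.516, 0.373 and 0.459 CPM and SNI libraries at 2.88, 0.893, 1.21, 0.803 and 1.15 CPM. The groups did not overlap in either strain, and SNI library 69 stood above the other 4. The log2 fold change was 2.45 (SE 0.341, adjusted p = 6.17e-05) in BALB/c and 1.61 (SE 0.324, adjusted p = 0.00491) in B10.D2. Egr2 stood at 0.14 (adjusted p = 0.781) and -0.06 (adjusted p = 0.944).

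LncRNA6420, LncRNA3821 and LncRNA6630 were also higher in both strains. LncRNA6420 (chr12:10181986-10225179, minus strand, opposite an exon of Gm48791) averaged 0.209 ± 0.0713 CPM (SD, 6 libraries) in BALB/c sham against 0.928 ± 0.406 CPM (SD, 4 libraries) in SNI, a log2 fold change of 2.14, and it rose by 1.33 in B10.D2. Without B10.D2 sham library 67 it kept a log2 fold change of 1.19 in B10.D2 and was no longer called. LncRNA3821 lies in an intron of Gm4208 on the same strand (chr1:62824790-62836180, minus strand), and rose by 1.14 and 1.07 while Gm4208 rose by 1.85 and 1.31. LncRNA6630 begins 1059 bases past the tubulin gene Tubb2b and rose by 1.10 and 0.86, while Tubb2b rose by 0.46 in BALB/c and stood at 0.24 (adjusted p = 0.11) in B10.D2.

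LncRNA3226, opposite exons of the histocompatibility gene H2-Q6, was called in BALB/c at a log2 fold change of 1.07 (adjusted p = 0.0205). It was no longer called without SNI library 64 (0.83) or SNI library 65 (0.98). Its sham libraries lay between 0.285 and 0.434 CPM and its SNI libraries between 0.454 and 1.10 CPM, a narrow margin between the groups.

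**Figure D2:**
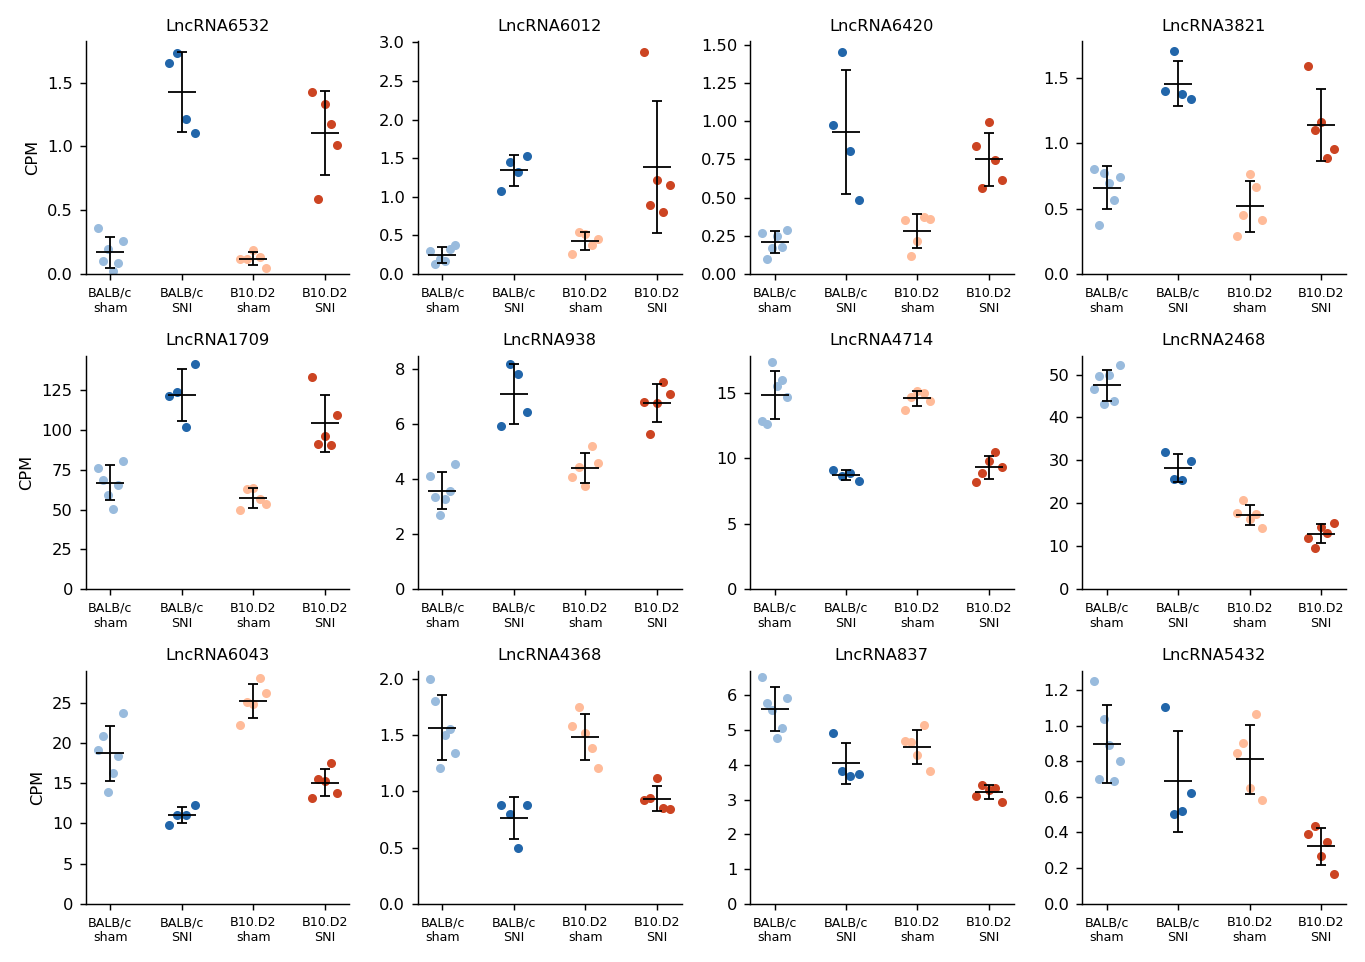
CPM (y axis, from 0, on a scale of its own in each panel) of 12 unmatched LncRNAs by library; points are libraries, long bars are group means and error bars are 1 SD (n = 6, 4, 5 and 5 from left to right). In LncRNA6532, LncRNA6012, LncRNA6420, LncRNA3821, LncRNA1709 and LncRNA938 the SNI libraries lie above the sham libraries in both strains, and in LncRNA4714, LncRNA6043 and LncRNA4368 they lie below them.

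LncRNA4714 fell in both strains. It starts 1004 bases past Oprd1, the delta opioid receptor gene, and overlaps an exon of Gm37711 on the same strand (chr4:132078749-132109721, minus strand). BALB/c sham libraries lay at 12.7, 15.1 and 17.4 CPM (lowest, median and highest of 6) and SNI libraries at 9.08, 8.68, 8.89 and 8.25 CPM. B10.D2 sham libraries lay at 13.7, 14.7, 15.1, 15.01 and 14.4 CPM and SNI libraries at 8.21, 8.86, 9.77, 10.49 and 9.33 CPM. Neither strain overlapped between groups. The log2 fold change was -0.77 (SE 0.0839, adjusted p = 3.25e-06) in BALB/c and -0.66 (SE 0.0810, adjusted p = 4.18e-05) in B10.D2, beside -0.70 and -0.80 for Oprd1, both called, and -0.74 and -0.71 for Gm37711, both called. Reads shared with Gm37711 cannot be told apart from reads of LncRNA4714.

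LncRNA2468 and LncRNA6043 also start just past a gene that fell. LncRNA2468 (42 exons, chr12:78901424-78960782, minus strand) averaged 47.5 ± 3.61 CPM in BALB/c sham, 28.3 ± 3.25 CPM in BALB/c SNI, 17.3 ± 2.35 CPM in B10.D2 sham and 12.9 ± 2.28 CPM in B10.D2 SNI (SD over 6, 4, 5 and 5 libraries), and its B10.D2 groups overlapped. It fell by 0.75 and 0.39 on the log2 scale, and Tmem229b, the gene before it, fell by 0.60 and 0.37. LncRNA6043 (15 exons, chr10:97669599-97680412, minus strand) fell by 0.75 and 0.73. Gm10754, the gene before it, fell by 1.10 in BALB/c and stood at -0.75 (adjusted p = 0.0531) in B10.D2. LncRNA6043 also lies opposite exons of Epyc, a cartilage proteoglycan gene, which rose by 0.90 and 1.07.

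Some calls of falls among LncRNAs at under 2 CPM on average were lost when 1 library was left out. LncRNA4368 (35 exons, opposite an exon of Gm18867) averaged 1.57 ± 0.292 CPM (SD, 6 libraries) in BALB/c sham and 0.762 ± 0.183 CPM (SD, 4 libraries) in SNI, a log2 fold change of -1.04. In B10.D2 it fell by 0.63 (adjusted p = 0.0337), and it was no longer called when any of the sham libraries 58, 60, 67 and 77 or the SNI libraries 69, 89 and 90 was left out (-0.56 to -0.643). LncRNA5738 (40 exons, opposite an exon of Gm19228) was lower in BALB/c by 1.10, and it was no longer called without SNI library 49 (-0.999) or 70 (-0.94). LncRNA6499 (opposite the serpin gene Serpina3b) was lower there by 0.93, and it was no longer called without sham library 51 or SNI library 64, 65 or 70 (-0.78 to -0.954). LncRNA5432 (between genes, 1431 bases past A230006K03Rik) fell by 1.31 (adjusted p = 0.00852) in B10.D2 and stood at -0.40 (adjusted p = 0.387) in BALB/c.

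LncRNA837 and LncRNA2255, whose gaps are printed above, fell in both strains. LncRNA837 lay at 5.61 ± 0.628 CPM (SD, n = 6) in BALB/c sham, 4.04 ± 0.594 CPM (SD, n = 4) in BALB/c SNI, 4.52 ± 0.494 CPM (SD, n = 5) in B10.D2 sham and 3.22 ± 0.195 CPM (SD, n = 5) in B10.D2 SNI. It fell by 0.48 and 0.47, beside 0.40 and 0.38 for its host Lingo2, a neuronal leucine-rich repeat membrane protein gene. Without SNI library 90 LncRNA837 stood at -0.42 in B10.D2 and was no longer called. LncRNA2255 fell by 0.60 in BALB/c and 0.52 in B10.D2, whereas its host Tenm2, a teneurin cell adhesion gene, stood at -0.02 (adjusted p = 0.935) and 0.13 (adjusted p = 0.506). The B10.D2 call on LncRNA2255 ended without sham library 60 (-0.39) or SNI library 69, 78 or 90 (-0.48 to -0.51), and with the B10.D2 libraries fitted alone (-0.51).

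Called intronic LncRNAs mostly had the sign of the gene that they overlapped. The host is the longest such gene on the same strand, and it need not enclose the LncRNA. In BALB/c, 1194 pairs of a LncRNA and its same-strand host gene (975 genes) were tested. Of the 68 LncRNAs called, 65 had a host with the same sign, where 66.9% of all pairs did. The host was called for 46, all in the same direction. Hosts were called for 67.6% of called LncRNAs and for 18.4% of all pairs. In 191 such pairs of junction-matched LncRNAs these shares were 66.7% and 18.3%. There 72.8% of pairs shared the sign, as did 17 of the 24 with a called LncRNA. In B10.D2, 33 LncRNAs were called, and 31 had a host with the same sign, where 63.3% of all pairs did. Of the 27 with a called host 26 went the same way. Pairs that fell included LncRNA2829 in the contactin gene Cntn1 (-0.52, gene -0.33) and LncRNA1763 in the adhesion gene Opcml (-0.35, gene -0.36), and pairs that rose included LncRNA2154 in the AMPA receptor gene Gria1 (0.46, gene 0.37), LncRNA2457 in the transcription factor gene Ahr (0.57, gene 0.38) and LncRNA1114 in the ephrin receptor gene Epha5 (1.13, gene 0.53). The LncRNAs of these pairs were named after their values were seen. The exception was LncRNA1683 in Nrg1, a Schwann cell growth factor gene: LncRNA1683 rose by 0.45 and Nrg1 fell by 0.28. Across pairs the log2 fold changes had Pearson's r of 0.59 for the BALB/c comparison and 0.47 for that of B10.D2 (Spearman's rho 0.56 and 0.41). Pairs come from the same libraries, LncRNAs of 1 host share that gene, and genes are not independent replicates.

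The same relation was computed past a gene and opposite one. In 316 pairs a LncRNA started 1000 to 2000 bases past a gene on the same strand. For these, r was 0.51 for BALB/c and 0.14 for B10.D2. Of 17 LncRNAs called in BALB/c 14 had the sign of the gene, where 60.1% of these pairs did. For the 322 pairs in which a LncRNA lay opposite a protein-coding exon, r was 0.021 in BALB/c and 0.054 in B10.D2. Of 17 such LncRNAs called in BALB/c 7 had the sign of the gene, where 52.2% of these pairs did, and 3 had a gene that was called. The difference between these relations was not tested. Also named after its values were seen, LncRNA5823, opposite the dopamine receptor gene Drd2, rose by 0.74 in B10.D2 (adjusted p = 0.00497) and Drd2 rose by 1.71. The libraries were made strand-specific, but the strand setting used in counting is not given in the sources used here, so reads of opposite genes may not be fully apart.

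**Figure D3:**
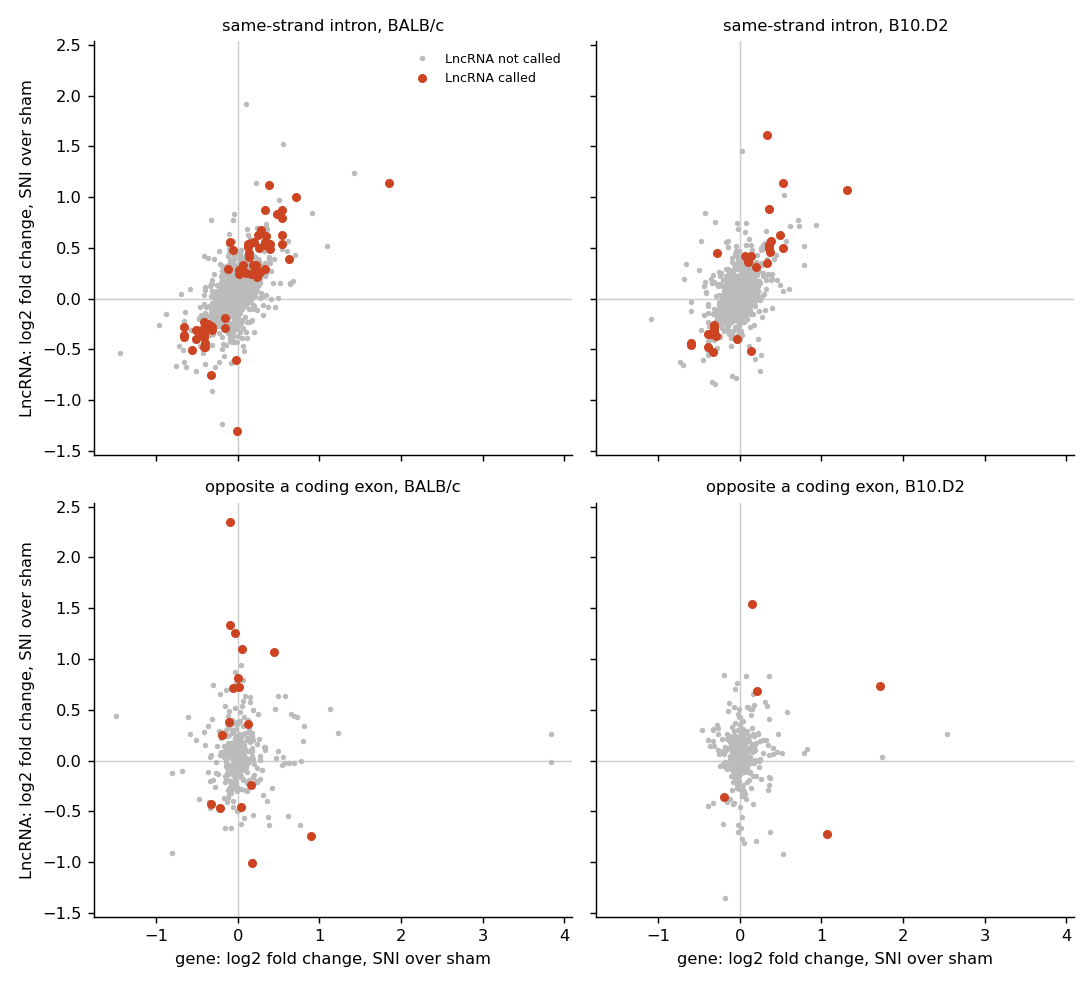
Log2 fold change of SNI over sham for the gene (x axis) and for the unmatched LncRNA (y axis), 1 point per pair. The upper panels hold LncRNAs whose span overlapped a gene on the same strand without overlap of exons (1194 pairs). The lower panels hold those opposite a protein-coding exon (322 pairs), with BALB/c on the left and B10.D2 on the right. Red points are called LncRNAs: in the upper left panel 65 of 68 share the sign of the gene, and in the lower left panel 7 of 17 do.

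Introns of Cntnap2, which encodes a membrane protein that gathers potassium channels beside the nodes of axons, held 12 unmatched LncRNAs, and 11 were tested. After SNI, BALB/c had 10 calls here and B10.D2 had 8, all of them lower, where 9.69% and 4.58% of all features were called. Cntnap2 itself fell by 0.42 and 0.31. LncRNA1208, of 38011 exonic bases, lay at 153 ± 13.2 CPM (SD, n = 6) in BALB/c sham, 124 ± 6.56 CPM (SD, n = 4) in BALB/c SNI, 176 ± 12.6 CPM (SD, n = 5) in B10.D2 sham and 145 ± 6.81 CPM (SD, n = 5) in B10.D2 SNI. LncRNA1210 fell by 0.34 (SE 0.0496, adjusted p = 9.34e-05) in BALB/c and by 0.26 (SE 0.0483, adjusted p = 0.00218) in B10.D2. The called LncRNAs fell by 0.23 to 0.48 in BALB/c. Their levels per kilobase were 4.08 in LncRNA1206, the nearest to the start of the gene, and 1.17 in LncRNA1215. Between these the levels did not fall steadily, with 4.10 in LncRNA1209, 2.04 in LncRNA1212 and 2.27 in LncRNA1213. These LncRNAs were chosen after their values were seen.

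In Tenm3, another teneurin gene, all 3 unmatched LncRNAs in its introns rose in both strains. LncRNA1709 (12 exons, 72738 exonic bases, chr8:48568626-48645140, minus strand) lay at 50.5, 66.97 and 80.6 CPM (lowest, median and highest of 6) in BALB/c sham and at 122, 124, 102 and 142 CPM in SNI. In B10.D2 it lay at 49.6, 62.9, 63.5, 56.7 and 53.3 CPM in sham and at 133, 91.0, 96.4, 90.7 and 109 CPM in SNI. Neither strain overlapped between groups. LncRNA1709 rose by 0.88 (SE 0.119, adjusted p = 4.88e-05) and 0.89 (SE 0.121, adjusted p = 0.000123), LncRNA1708 by 0.53 and 0.53, LncRNA1707 by 0.56 and 0.50, and Tenm3 by 0.33 and 0.36. LncRNA1707 and LncRNA1708 were chosen after their values were seen.

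**Figure D4:**
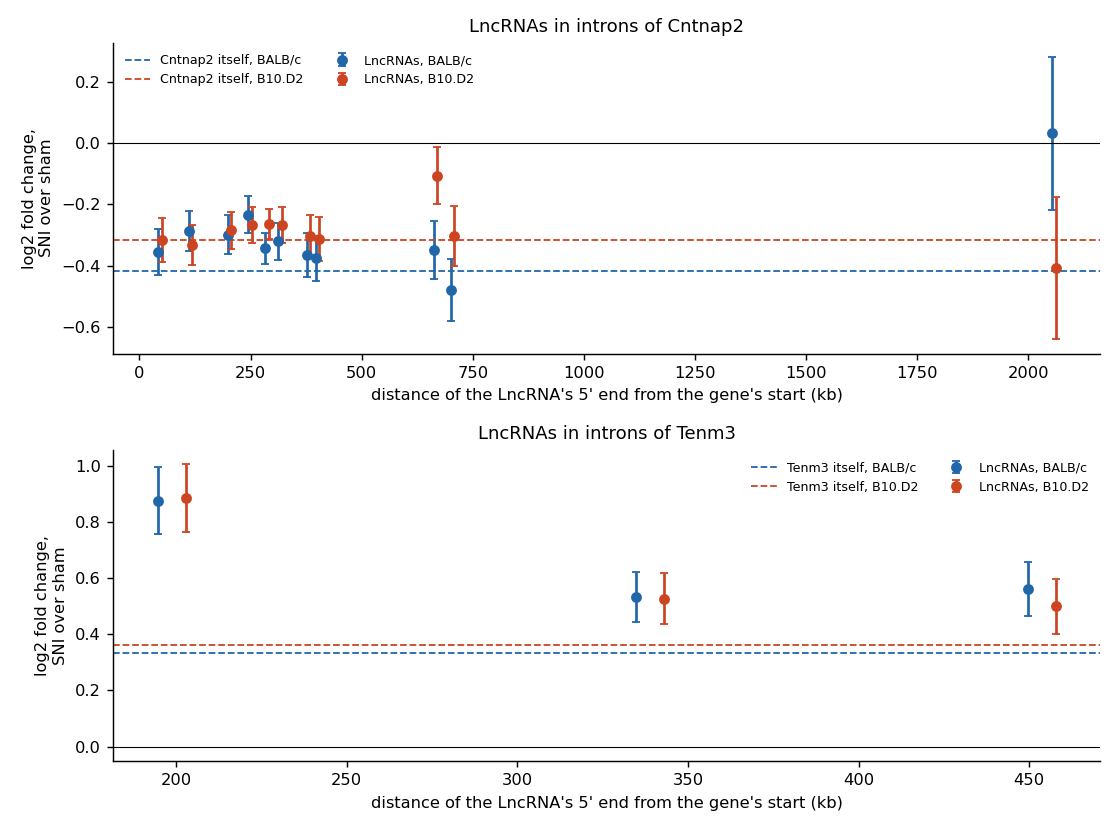
Log2 fold change of SNI over sham (y axis; error bars are 1 SE) of unmatched LncRNAs in introns of Cntnap2 (upper panel, 11 LncRNAs) and Tenm3 (lower panel, 3 LncRNAs) against the distance of the LncRNA's 5′ end from the start of the gene (x axis, kilobases); B10.D2 points are moved slightly to the right so that both can be seen. Dashed lines mark the gene itself: -0.42 in BALB/c and -0.31 in B10.D2 for Cntnap2, and 0.33 and 0.36 for Tenm3.

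Near 39 of 196 ion channel genes, overlapping them or within 10000 bases, lay 56 unmatched LncRNAs, of which 49 were tested. In BALB/c 5 were called (3 higher, 2 lower; 10.2%, against 9.69% of all features) and in B10.D2 3 were called (2 higher, 1 lower; 6.12%, against 4.58%), with a median log2 fold change of -0.011 and -0.043. The channel genes themselves had 40 of 175 called in BALB/c, 33 of them lower. The called LncRNAs below were named after their values were seen. LncRNA938, with a GT-AG gap of 50177 bases in an intron of Cacna2d1, the calcium channel subunit gene bound by gabapentin-type drugs, lay at 2.68, 3.44 and 4.57 CPM (lowest, median and highest of 6) in BALB/c sham and at 5.93, 8.20, 7.83 and 6.44 CPM in SNI. In B10.D2 it lay at 4.06, 4.43, 3.75, 5.22 and 4.59 CPM in sham and at 6.81, 5.64, 6.76, 7.52 and 7.08 CPM in SNI. All SNI libraries were above the sham libraries of their strain. LncRNA938 rose by 0.998 (SE 0.133, adjusted p = 3.72e-05) and 0.63 (SE 0.131, adjusted p = 0.00677), beside 0.71 and 0.50 for Cacna2d1.

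LncRNA6793 lies between genes, 97 bases from the sodium leak channel gene Nalcn and on the opposite strand. It held 0 to 3 counts in BALB/c sham libraries and 10 to 18 in SNI libraries, at least 4.45-fold higher over a floor of 3 counts per library (adjusted p = 0.000803). In B10.D2 it rose from 1 to 6 counts in sham libraries to 4 to 28 in SNI libraries (adjusted p = 0.0234), and these groups overlapped. Nalcn fell by 0.21 in BALB/c and stood at -0.04 in B10.D2 (adjusted p = 0.811). LncRNA2252 runs through Kcnip1 on the same strand and lies opposite exons of Kcnmb1, both genes of potassium channel partners. LncRNA2252 fell by 0.43 and 0.36, with Kcnip1 at -0.54 and -0.49, both called. Kcnmb1 stood at -0.32 in BALB/c (adjusted p = 0.0187) and at -0.20 in B10.D2 (adjusted p = 0.228). LncRNA3975, 2989 bases from the potassium channel gene Kcnh7, fell by 0.59 in BALB/c, where Kcnh7 fell by 0.70, and LncRNA5870 in an intron of Ano10 rose by 0.33 (adjusted p = 0.0497), where Ano10 stood at 0.06. Near 35 genes of pain-related receptors, peptides and growth factor receptors lay 9 unmatched LncRNAs. Of 6 tested, LncRNA4714 near Oprd1 was called in each strain and the other 5 were not. A single unmatched LncRNA lay near an injury-induced gene, and it was not called.

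No unmatched LncRNA passed the test of the strain by SNI interaction in edgeR or in DESeq2, where 0.0243% of all features were called in edgeR. An unadjusted p under 0.05 was found for 107 (4.49%), and for 4.35% of all features. The 3 with the smallest p were LncRNA4172 (difference in log2 fold change, B10.D2 minus BALB/c, 1.11, adjusted p = 0.67), LncRNA960 (-1.23, adjusted p = 0.755) and LncRNA7723 (-1.06, adjusted p = 0.755). LncRNA960, in an intron of 9530036O11Rik, rose by 0.87 in BALB/c (adjusted p = 0.0156) and stood at -0.36 in B10.D2 (adjusted p = 0.525), so this pair of values is not shown to differ after adjustment.

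Between the strains, 551 of 2384 unmatched LncRNAs were called in sham libraries (305 higher and 246 lower in B10.D2; 23.1%), against 21.6% of all features (11.5% higher, 10% lower). Of the 2384, 333 were called with groups that did not overlap, against 3168 of all 24685 features (12.8%). The share called was 34.2% among junction-matched LncRNAs. A fold of at least 2 was reached by 198 called LncRNAs, 119 of them higher in B10.D2, and a fold of at least 8 by 50, 25 of them higher. At most 3 counts in every B10.D2 sham library were held by 18 called LncRNAs, and at most 3 in every BALB/c sham library by 16. Of the 5 skeletal muscle markers 4 were lower in B10.D2 sham, and of the 6 T cell markers 5 were higher. Of the 11 macrophage markers 5 were also higher (median 0.41 on the log2 scale), and 2 of 4 adipocyte, 2 of 5 endothelium and 2 of 6 satellite glia markers were lower. The part of these cells in the strain calls was not tested. Libraries of the sham groups also serve in the SNI comparisons.

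LncRNA7329, LncRNA1562 and LncRNA3735 were near zero in B10.D2. LncRNA7329 lies in an intron of the pseudogene Tmem181c-ps (chr17:6633496-6638683, minus strand), with 5.36, 6.76 and 7.79 CPM (lowest, median and highest of 6) in BALB/c sham and 0 or 1 count in each B10.D2 sham library. It was at least 73.5-fold lower in B10.D2, taking 3 counts per library as the floor, and Tmem181c-ps was lower by 4.48 on the log2 scale. LncRNA1562, 8700 bases from the defensin gene Defa21, had 160 to 401 counts in BALB/c sham and 0 to 2 in B10.D2 sham, at least 78.9-fold lower. LncRNA3735, in an intron of Dpp10 on the opposite strand, was at least 63.8-fold lower, and Dpp10, an auxiliary subunit gene of potassium channels, was lower by 0.38 on the log2 scale. None of the 3 overlapped between strains, which was a condition for naming them.

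A like difference was seen for LncRNA3715, which overlaps Gal3st2b (at least 26.1-fold lower), and LncRNA5267 near Vmn1r157 (at least 15.5-fold lower). It was also seen for LncRNA6746, which spans 61710 bases among T cell receptor segments such as Trav12-2 (at least 13.6-fold lower). Of the exon bases of LncRNA5267, LncRNA1562 and LncRNA7329, 96.6%, 87.5% and 38.2% are masked as repeats in the reference. Reads from near-identical copies of such regions, which also include the defensin and receptor gene families, are uncertain.

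In the other direction, LncRNA466, in an intron of 4930402H24Rik (chr2:130841789-130871504, minus strand), lay at 0.0837, 0.123 and 0.228 CPM (lowest, median and highest of 6) in BALB/c sham and at 11.7, 13.1 and 14.4 CPM (of 5) in B10.D2 sham. It was higher by 6.54 (SE 0.177, adjusted p = 4.8e-17), while its host stood at 0.08 (adjusted p = 0.154) and A730017L22Rik, which ends 1554 bases before it, was higher by 7.09. LncRNA12 (in an intron of A830018L16Rik), LncRNA5734 (opposite Fam83b) and LncRNA6324 (overlapping Gm10479) held at most 3 counts in every BALB/c sham library, and were at least 13.4-fold, 11.9-fold and 17.9-fold higher in B10.D2. LncRNA1143, which overlaps Rnf10 without overlap of exons and has a gap of 69222 bases, was higher by 4.40, with Rnf10 lower by 0.25. LncRNA2344 in an opposite-strand intron of Slc7a15 was higher by 4.36. In these LncRNAs, too, the sham groups did not overlap, as the naming rule required.

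**Figure D5:**
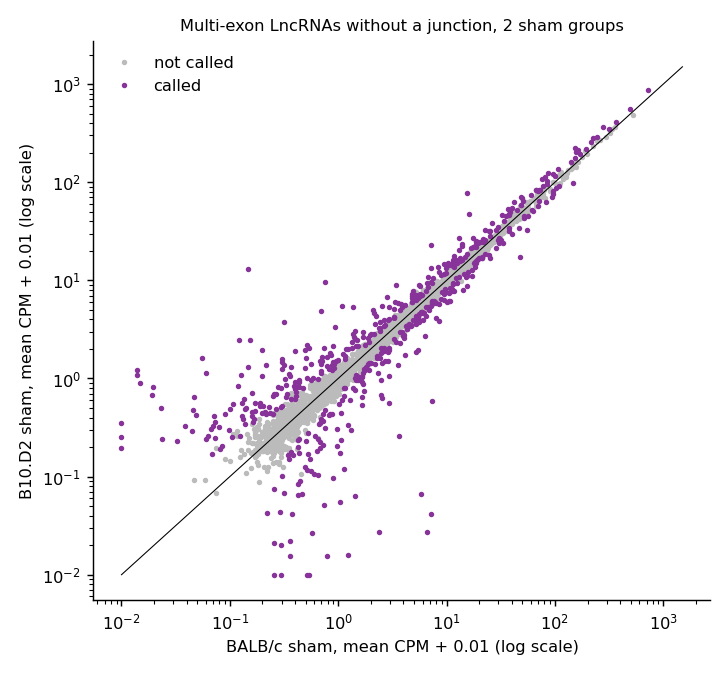
Mean CPM + 0.01 of the 2384 unmatched LncRNAs tested, in BALB/c sham (x axis, log scale, n = 6) and B10.D2 sham (y axis, log scale, n = 5). Purple points are the 551 called and the line marks equal levels. Most points lie along the line, and points near the lower edge (such as LncRNA7329) or the left edge (such as LncRNA12) had almost no counts in 1 strain.

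Hosts of intronic LncRNAs were compared between strains in the same way. Of 245 intronic LncRNAs called for strain, 206 had a host with the same sign, where 66.8% of all 1194 pairs did. In a host called in the same direction lay 96. Introns of Cntnap2 again held several, and 7 of 11 were called, where Cntnap2 stood at 0.10 (adjusted p = 0.191). Among LncRNAs near ion channel genes 10 of 49 were called (8 higher; 20.4%), a share near the 21.6% of all features. They included LncRNA3388 in an intron of the touch channel gene Piezo2 (0.52, adjusted p = 0.000257), with Piezo2 at 0.11 (adjusted p = 0.182), and LncRNA5774 opposite exons of the nociceptor sodium channel gene Scn11a (0.64, adjusted p = 0.00073), with Scn11a at 0.09 (adjusted p = 0.354). LncRNA3388 and LncRNA5774 were named after their values were seen.

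Between the sexes 8 unmatched LncRNAs were called (4 higher and 4 lower in males; 0.336%), against 0.243% of all features (0.101% higher, 0.142% lower). This count ran from 3 to 14 with 1 library left out and was 22 with DESeq2. LncRNA7953 overlaps the Y-linked translation factor gene Eif2s3y without overlap of exons and runs past its end, and LncRNA7954 begins 7917 bases past that gene. Males lay at 2.28, 13.4 and 14.4 CPM (lowest, median and highest of 10) for LncRNA7953 and at 2.43, 13.9 and 16.9 CPM for LncRNA7954, and females at 0 to 0.241 CPM and 0 to 0.176 CPM. Of the 2384 tested, only these 2 were called with sexes that did not overlap, against 19 of all 24685 features (0.077%). The log2 fold changes were 7.403 (SE 0.393) and 7.44 (SE 0.372). In the male BALB/c sham library 71 both LncRNAs and Eif2s3y were low. Eif2s3y stood at 8.62 CPM there and at 43.3 to 61.9 CPM in the other 9 males, while the Y-linked Ddx3y (91.1 CPM, others 72.3 to 103.5), Uty (68.2, others 60.7 to 70.2) and Kdm5d (40.2, others 41.1 to 47.2) stood near the other males and Xist at 1.998 CPM, against 406 to 575 CPM in females.

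The other 6 sex calls were smaller, and they were named after their values were seen. LncRNA3595, in an intron of the X-linked LncRNA gene Firre, lay at 3.08 ± 0.230 CPM (SD, n = 10) in males and 4.34 ± 0.879 CPM (SD, n = 10) in females. LncRNA199 in Prrx1, LncRNA364 in Tshz2 and LncRNA7160 were lower in males by 0.46, 0.34 and 1.68 on the log2 scale, and LncRNA1740 and LncRNA7723 were higher by 0.50 and 0.76. The sexes overlapped for each of these 6. Without library 71, 5 LncRNAs were called for sex, 115 for SNI in BALB/c and 521 for strain, and the 41 results on LncRNAs named by rule kept their direction and their side of the threshold.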

How the data were processed

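Total RNA of mouse ganglia was depleted of ribosomal RNA and sequenced in strand-specific libraries. The authors aligned reads with STAR to GRCm38 (mm10) and deposited whole-number counts per annotated gene (ENSEMBL GRCm38.87) and assembled LncRNA, made with HTSeq, together with exon positions of the LncRNAs and splice junction positions (tool versions are not given in the sources used here). For 54315 features in 20 libraries, edgeR 4.0.16 (R 4.3.3) gave TMM factors, the filterByExpr filter and a quasi-likelihood fit with 4 groups and sex. Its two-sided F tests, with Benjamini-Hochberg adjustment over 24685 features, were tested on simulated data. DESeq2 1.42.0 (a tool the authors also name) was an alternative, as were other size factors, count filters, covariates and left-out libraries. Positions were compared with GENCODE M21, which held 49326 of 49585 ENSEMBL identifiers. No pair of libraries within a group (41 pairs) was identical. Per the study's methods each library was 1 animal. The 2 other labelled samples and the authors' own fold changes and p-values were not used. The LncRNAs, gene lists and naming rule were chosen with earlier results of these data known. Named by rule were, among called LncRNAs of at least 0.5 CPM whose groups did not overlap, the 6 largest rises and falls for SNI and strain and up to 4 each way for sex (2 met this), the 3 smallest p of the interaction, the 5 highest per kilobase and the 3 with most exons.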

Additional observations from a re-analysis of the deposited data

Results flagged for a closer look

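Of 164 groups of 4 to 10 libraries examined for the LncRNAs named by rule and for the summed share of counts, 9 (5.49%) held a library far from the others of its group by Dixon's 95% limit, where chance gives about 1 in 20. For SNI these were LncRNA6012 in B10.D2 SNI library 69 (2.88 CPM, the highest of 5), LncRNA3821 in BALB/c SNI library 64 (1.71 CPM), LncRNA5738 in B10.D2 sham library 60 (0.694 CPM) and LncRNA837 in BALB/c SNI library 49 (4.93 CPM). For strain, single counts stood apart from groups otherwise at 0 for LncRNA12 and LncRNA5734, both in BALB/c sham library 55 (0.0241 CPM each), and for LncRNA6746 in B10.D2 sham library 58 (0.0292 CPM). LncRNA5267 stood apart in BALB/c sham library 50 (2.71 CPM). LncRNA7985, the highest per kilobase, reached 77.1 CPM in B10.D2 sham library 77, where the group median was 24.8 CPM.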

How the results depend on the processing

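No paired analysis was possible because no library number is shared between groups. With intergenic LncRNAs alone, 18 were called for SNI in BALB/c, 7 in B10.D2, 102 for strain and 3 for sex, a count over fewer LncRNAs (381 tested). The sex count was 22 with DESeq2, 23 with no filter on low counts and 5 with at least 10 counts in every library, and the cause was not tested. Other tests, filters and size factors kept the SNI and strain counts within 1.5 times of 138, 59 and 551, and 0 were called for the interaction in each. Leaving out 1 library gave 90 (without BALB/c SNI library 64) to 150 calls for SNI in BALB/c, 38 (without B10.D2 SNI library 90) to 65 in B10.D2, 485 to 565 for strain, 0 for the interaction and 3 to 14 for sex. The sex count moved by over 1.5 times without BALB/c sham library 56 (14), 57 (3) or 71 (5), BALB/c SNI library 49 (5), 64 (4), 65 (3) or 70 (5), B10.D2 sham library 58 (3) or 67 (4), or B10.D2 SNI library 69 (4), 89 (3) or 90 (5). Of 1024 alternatives to the 41 results on named LncRNAs, 1001 kept direction and side of the threshold, 23 lost the call and 0 reversed. Besides the left-out libraries given in the report, LncRNA4368 in B10.D2 lost its call with no filter (adjusted p = 0.0557). The GT-AG share was 0.389% on the opposite strand and 15.1% when each gap end could move by up to 3 bases (11.96% on the opposite strand, a value added after seeing the data). Gaps inside or sharing an end with a junction made up 96.2% with junctions of at most 100000 bases, a limit chosen after seeing the data. The share of counts was 70.9% when the total was over assembled LncRNAs. Depth limits LncRNAs under 0.5 CPM (38.0%): 3 counts equal 0.0716 to 0.1 CPM.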

Other observations

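Rbfox1, a neuronal splicing factor gene, and Luzp2 also held many unmatched LncRNAs in their introns, and both were chosen after their values were seen. Of 11 tested in Rbfox1, 2 were called for SNI in BALB/c, 0 in B10.D2 and 5 for strain, with median log2 fold changes of -0.16, -0.09 and 0.13, and Rbfox1 itself was called in none of the 3 comparisons. Of 8 tested in Luzp2, 0 were called for SNI in either strain and 5 for strain, with medians of -0.02, -0.03 and 0.26, and Luzp2 itself was not called. Over all features tested, 9.69% were called for SNI in BALB/c, 4.58% in B10.D2 and 21.6% for strain. LncRNA6036, in an intron of the vesicular glutamate transporter gene Slc17a8, rose by 1.61 in B10.D2 (adjusted p = 0.0119) and stood at 0.36 in BALB/c (adjusted p = 0.58), while Slc17a8 rose by 0.33 in B10.D2. This LncRNA was also chosen after its values were seen, and the difference between strains did not pass the interaction test of edgeR.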
